A study of Mus musculus with 32 samples.

Results

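The first 3 days of UB/OC-1 cells at 39 °C were compared with the same cells on day 0 at 33 °C. UB/OC-1 is a conditionally immortal mouse cell line that was made from embryonic organ of Corti, where the hair cells that detect sound lie among their supporting cells. The labels call it undifferentiated on day 0 and differentiating afterwards. The samples were chosen by day from the titles: day 0 of experiments A and B, days 1, 2 and 3 of experiment A, and B2. They made up 12 of the 32 samples of the study, because each of the 6 RNA samples was hybridised to both designs (a and b) of an oligonucleotide array set, which carry different probe sets. The RNA samples are written A0, A1, A2 and A3 for days 0 to 3 of experiment A, and B0 and B2 for days 0 and 2 of experiment B. Each design was analysed in its own table, with 4 arrays at 39 °C against 2 at 33 °C. All groups shared the 1 cell line, and the labels named no further genotype, drug or other agent. As a cell line it is no model of the mixed epithelium of the cochlea. The labels gave the temperature and no other condition of culture. A change of temperature and any change of medium or supplement made with it cannot be told apart here.

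As background, lines of this kind come from a mouse that carries a temperature-sensitive large T antigen of the virus SV40 under the H-2Kb promoter, which interferon gamma switches on. The antigen is active at the lower temperature, where it binds the retinoblastoma and p53 proteins and keeps cells dividing, and it is unstable at the higher temperature. Interferon gamma acts through the kinases Jak1 and Jak2. Its target genes carry gamma-activated sites (GAS) or interferon-stimulated response elements (ISRE), and Irf1 and related factors bind the latter.

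Promoters of 8 genes of the interferon response are shown so that the sites can be read beside the values. They were chosen from genes whose windows hold a match, and Irf1, which did not pass the test, is among them. Psme1 (1 ISRE-type match) and Samhd1 (1 GAS match), which fell, also hold one and are not shown. Psmb10 and Psmb9, which fell, are not shown since neither motif was found in their windows. Iigp1 matched no window. Each line gives the 140 bases before the start of the gene, 5′ to 3′ on the strand of the gene, from RefSeq on GRCm38.p6. Capitals mark letters that match GAAANNGAA, the core of an ISRE, or TTCNNNGAA, a GAS, on either strand, and runs of capitals longer than 9 hold matches that touch or overlap.
Gbp2 chr3:142620523-142620662 (plus strand): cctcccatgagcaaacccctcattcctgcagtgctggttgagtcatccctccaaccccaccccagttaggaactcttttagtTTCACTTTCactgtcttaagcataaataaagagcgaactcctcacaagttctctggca
Gbp3 chr3:142559904-142560043 (plus strand): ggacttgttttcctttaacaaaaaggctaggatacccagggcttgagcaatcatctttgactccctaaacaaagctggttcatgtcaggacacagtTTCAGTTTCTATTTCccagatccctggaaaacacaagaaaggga
Gbp7 chr3:142530196-142530335 (plus strand): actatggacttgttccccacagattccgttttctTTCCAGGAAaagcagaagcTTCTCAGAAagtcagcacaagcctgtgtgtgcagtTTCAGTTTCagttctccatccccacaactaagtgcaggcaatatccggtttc
Igtp chr11:58199416-58199555 (plus strand): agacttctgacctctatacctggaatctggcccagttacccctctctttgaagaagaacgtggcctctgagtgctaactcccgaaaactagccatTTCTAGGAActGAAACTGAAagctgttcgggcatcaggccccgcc
Socs1 chr16:10785537-10785676 (minus strand): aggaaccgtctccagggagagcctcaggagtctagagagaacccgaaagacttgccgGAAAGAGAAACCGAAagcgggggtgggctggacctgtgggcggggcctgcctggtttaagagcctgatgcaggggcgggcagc
Isg15 chr4:156200819-156200958 (minus strand): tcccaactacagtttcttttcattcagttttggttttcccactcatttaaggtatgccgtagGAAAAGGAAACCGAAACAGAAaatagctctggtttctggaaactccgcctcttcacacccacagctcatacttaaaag
Irf1 chr11:53769874-53770013 (plus strand): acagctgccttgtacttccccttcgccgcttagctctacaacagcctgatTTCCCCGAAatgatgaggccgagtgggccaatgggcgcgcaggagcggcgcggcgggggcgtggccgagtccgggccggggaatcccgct
Psmb8 chr17:34198055-34198194 (plus strand): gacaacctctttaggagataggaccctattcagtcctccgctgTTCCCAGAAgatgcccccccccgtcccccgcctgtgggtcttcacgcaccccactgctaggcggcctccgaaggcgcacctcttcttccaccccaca
The ISRE-type match lay 58 bases before the start in Gbp2, 44 and 38 in Gbp3, 52 in Gbp7, 34 in Igtp, 83 and 77 in Socs1, and 78, 72 and 66 in Isg15. GAS matches lay 106 and 87 bases before the start in Gbp7, 45 in Igtp, 90 in Irf1 and 97 in Psmb8. Gbp3 and Irf1 each have another annotated start, where neither motif was found. Over windows of 300 bases (250 before to 50 after a start, both strands), GAAANNGAA was found in 8.6% of 32851 windows of all genes and TTCNNNGAA in 8.3%. Both were found in 351 windows, and they overlapped in 54. Among the genes described below as lower, 13 of the 72 with a window held GAAANNGAA (18.1%), against 2 of 67 that were higher (3.0%) and 299 of all 3404 tested genes with a window (8.8%). TTCNNNGAA was found in 8.3%, 7.5% and 7.5% of the same 3 sets. The other letters searched were GAANNTTC, found in heat shock elements (9.7% of the lower, 3.0% of the higher and 6.8% of the tested genes), TTTGAA, found in cell cycle promoters (12.5%, 7.5% and 15.5%), CACGTG, the E-box that Myc binds (13.9%, 10.4% and 12.8%), and CCAAT (40.3%, 43.3% and 42.6%). A match is a description of these letters, not of binding.

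The deposited values were array intensities, linear and signed. Of the probe sets of design a, 44.3% to 49.8% lay above a noise floor of 141 on each of its 6 arrays, and of those of design b 30.9% to 39.3% lay above a floor of 198. Values below the floor were raised to it before testing, and the values given below are those deposited, which can be negative. Arrays of experiment A stood apart from those of experiment B. The noise level of an array was 124.5 to 247 in experiment A and 68 to 92 in experiment B, the 18S RNA control was 11243 to 27780 against 388 to 1092, and the 3′ to 5′ signal ratio of the Gapdh control was 0.99 to 1.67 against 0.76 to 0.89. Day 0 holds 1 array of each experiment and days 1 to 3 hold 3 of A and 1 of B, so these differences enter the comparison in part, and a fit with experiment as a block is quoted where it changes a call or moves a count by over 1.5 times. Days served as the replicates. The spread behind each p-value and standard error was estimated from all arrays of a design, those of the days after day 3 included. A p-value therefore does not reflect the scatter among these samples alone, and the number of arrays limits the precision. With the 6 arrays alone 15 probe sets passed, against 270 with all arrays. In bulk RNA, fewer cells of a type and less RNA per cell cannot be told apart.

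Of 7726 probe sets tested, 270 changed at an adjusted p under 0.05 (3.49%). Of these, 112 were higher at 39 °C (1.45%) and 158 lower (2.05%). An unadjusted p under 0.05 was reached by 1009. The increases came from 81 genes with a single symbol, beside 20 probe sets with no symbol and 2 with several, and the decreases from 90 genes, beside 54 and 5. The median fold was 3.15 among the increases and 2.72 among the decreases, counting a gene at the floor at its lower bound. Among the increases, 3 were under 2-fold, 80 were between 2-fold and 4-fold, 24 between 4-fold and 8-fold and 5 above 8-fold. The decreases fell into the same classes as 28, 99, 22 and 9. The 4 later arrays all lay above both day 0 arrays in 109 of the 112 increases, and all below them in 157 of the 158 decreases. Over all tested probe sets, 554 (7.17%) had no overlap with the later arrays higher, and 661 (8.56%) with the later arrays lower.

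Across all tested probe sets the change was small. Its 5th, 25th, 50th, 75th and 95th percentiles were -0.93, -0.22, 0.05, 0.33 and 0.93 on the log2 scale. Of the 3374 probe sets above the floor on all 6 arrays, 841 (24.9%) had a 95% interval of the change that lay within 2-fold in both directions. The median interval over the 3374 reached 0.83 to either side of the estimate. A further 217 probe sets had an estimated increase above 2-fold without passing the test, and 200 an estimated decrease of that size. With experiment as a block 469 passed (6.07%), 202 higher and 267 lower, and all 270 were among them. Leaving out 1 RNA sample at a time moved the count between 126 (without B0) and 338 (without A1), and it was 172 without A3. Of the 90 increases with 1 symbol, 15 passed in all 6 of these fits, and of the 99 decreases 32 did.

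**Figure D1:**
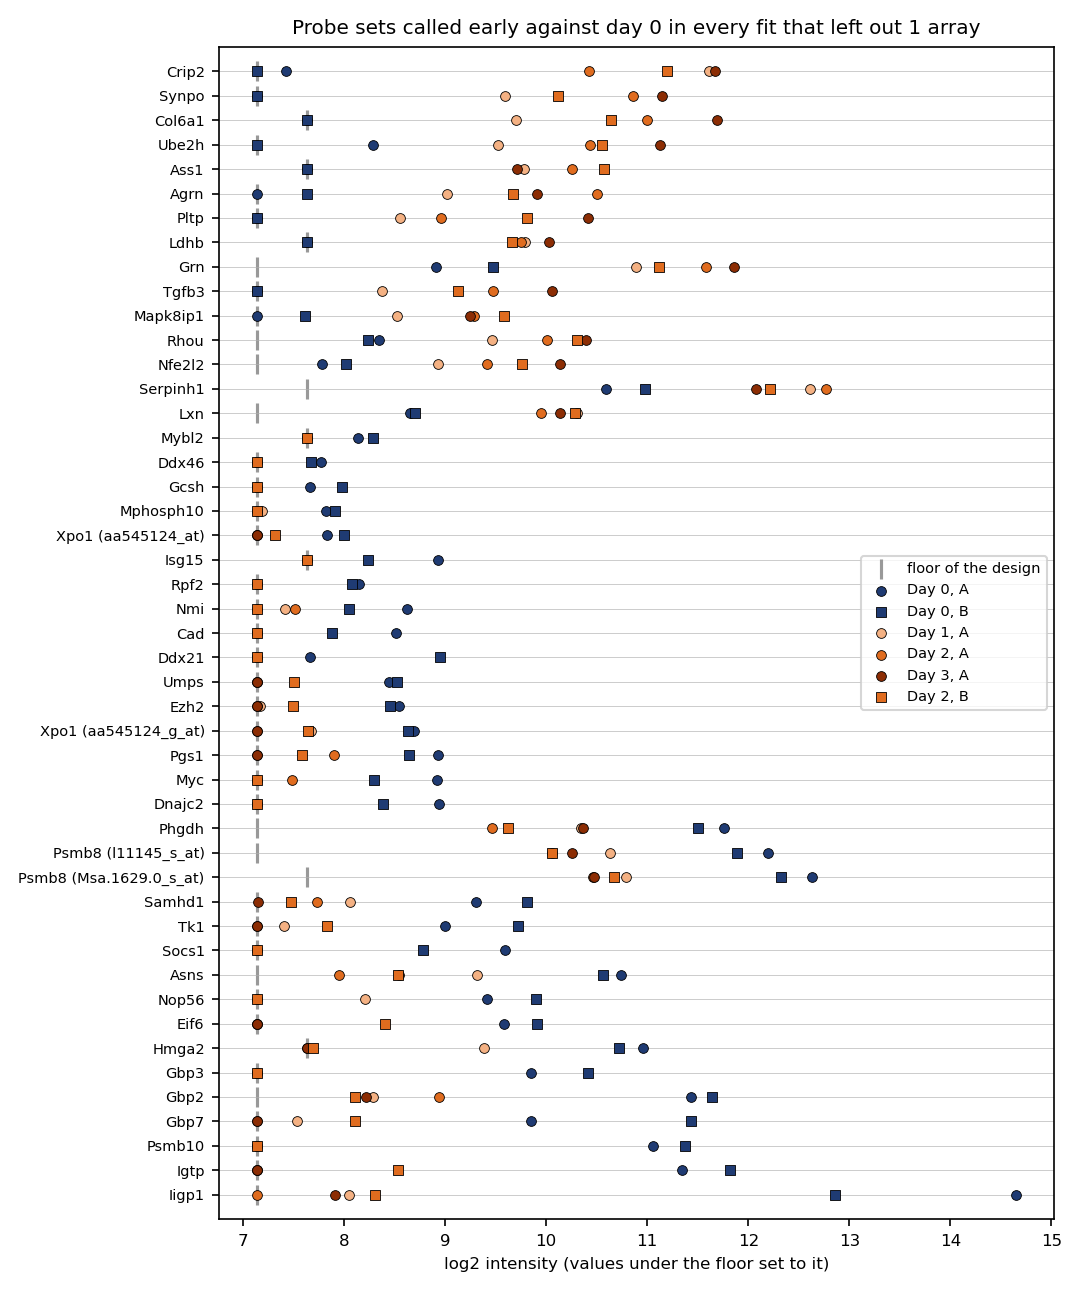
Intensity on the 6 arrays of each of the 47 probe sets with 1 gene symbol (15 higher, 32 lower) that passed in every fit leaving out 1 RNA sample. The horizontal axis is log2 of the deposited intensity after raising values to the floor (grey ticks); blue points are day 0, orange points days 1 to 3, circles experiment A and squares experiment B. Iigp1, Igtp and Psmb10 show the widest gaps to the left, and Crip2 and Synpo the widest to the right.

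Among probe sets with 1 gene symbol, Iigp1, Igtp and Psmb10 of the interferon response gave the largest decreases. Of 9 probe sets of interferon-inducible GTPases tested, 5 fell, 0 rose and 4 did not pass, with a median change of -2.99 (median over all 4947 tested probe sets with 1 symbol 0.03). Of those 4947, 90 rose and 99 fell, and the counts of every list are to be read beside these. These GTPases attack the vacuoles in which intracellular pathogens live. Iigp1, an immunity-related GTPase, stood at 25730 in A0 and 7447 in B0, and then at 265 in A1, 104 in A2, 241 in A3 and 316 in B2; values of other genes follow in that order. Igtp, of the same family, stood at 2600 and 3618 and then at 46, -110, 79 and 370. Gbp2, a guanylate-binding protein, stood at 2768 and 3193 and then at 311, 489, 298 and 276. In all 3 the later arrays lay far below both day 0 arrays, and those of Igtp were at the floor in experiment A. The change was -5.91 ± 0.46 (SE, n = 4 against 2) for Iigp1, 59.9-fold (adjusted p = 1.87e-07), -4.09 ± 0.47 for Igtp, 17.1-fold (adjusted p = 4.8e-05), and -3.15 ± 0.37 for Gbp2, 8.89-fold (adjusted p = 5.37e-05). Gbp3 fell at least 7.96-fold, from 923 and 1365 to the floor on every later array (28, 42, 43 and 61; adjusted p = 1.87e-07). Gbp7 stood at 925 and 2774 and then at 185, 130, 90 and 276, 8.97-fold lower (adjusted p = 0.000836). Its day 0 arrays differed from each other, and the fold was 15.5 without A0 and 5.18 without B0; the same pair of values was 32.2 and 111 for Iigp1. The 5 decreases passed in all fits that left out 1 sample. Irgm1 (3130 and 1093, then 1006, 891, 599 and 816; change -1.19 ± 0.52, adjusted p = 0.307) and Ifi47 (1662 and 1916, then 1335, 911, 598 and 645; change -1.11 ± 0.42, adjusted p = 0.205), GTPases of the same response, did not pass.

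Of 21 probe sets of the immunoproteasome and MHC class I pathway, 5 fell and 0 rose, with a median change of -0.12, and the decreases were those of the immunoproteasome. Its subunits replace those of the constitutive proteasome under interferon and change which peptides are cut for display. Psmb10 stood at 2131 and 2653 and then at 40, -157, -136 and 111, below the floor on every later array and at least 16.9-fold lower (change -4.08 ± 0.26, adjusted p = 1.63e-08). Psmb8 stood at 6356 and 5116 and then at 1770, 1408, 1422 and 1625, so that it stayed well above the floor while all later arrays lay below day 0. It was 3.68-fold lower (-1.88 ± 0.28, adjusted p = 0.000527), and its other probe set 3.47-fold (adjusted p = 0.00198). Psmb9, whose family probe set leaves the gene uncertain, stood at 1480 and 1524 and then at 279, 179, 310 and 522 (5.01-fold lower, adjusted p = 0.00643). Its other probe set did not pass (change -1.50, adjusted p = 0.0523). Psme1, a subunit of the proteasome activator PA28, stood at 2162 and 2189 and then at 874, 691, 1028 and 1027 (2.44-fold lower, adjusted p = 0.0163). Without B0 3 of the 5 passed, and the calls of Psmb9 (adjusted p = 0.0638) and Psme1 (0.131) ended, as did that of Psme1 without A0 (0.0824). That of Psmb9 was lost with the lower floor (0.0973) and on the arcsinh scale (0.257). Of the class I proteins that carry the peptides, H2-K1 (13935 and 6568, then 6347, 7544, 7916 and 6478; change -0.44 ± 0.30, adjusted p = 0.674) and B2m, the light chain (15945 and 6200, then 14702, 14530, 12668 and 9508; change 0.35 ± 0.41, adjusted p = 0.891), did not pass.

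Of 27 probe sets of interferon signalling and response genes, 3 fell and 1 rose (5 and 1 with experiment as a block), with a median change of 0.00. Socs1, the inhibitor of Janus kinases that interferon itself induces, stood at 770 and 441 and then at 27, 109, 30 and 57. Every later array was at the floor, so that the fall was at least 4.13-fold (-2.05 ± 0.36, adjusted p = 0.00316). Samhd1, a nucleotide phosphohydrolase that limits viral replication, stood at 634 and 897 and then at 267, 213, 142 and 178 (3.87-fold lower, adjusted p = 0.00212). Isg15, a ubiquitin-like protein, stood at 486 and 302 and then at -10, -38, 67 and 33, at the floor throughout (at least 1.94-fold lower, adjusted p = 0.00318). These 3 decreases passed without any 1 sample, but that of Samhd1 was lost with the lower floor (adjusted p = 0.0976) and on the arcsinh scale (0.0627), as did that of Isg15 on the arcsinh scale (0.0821). Irf1, the transcription factor that acts at ISREs, stood at 4505 and 2241 and then at 1191, 2314, 1220 and 925. The groups overlapped, and its change of -1.26 ± 0.37 did not pass (adjusted p = 0.0719). Its call was gained in 4 other fits: those that blocked on experiment (0.0027), added a noise covariate (0.00959), used experiment A alone (0.0496) or left out A2 (0.0217). Jak2 moved the other way, from 203 and 193 to 549, 1129, 882 and 550 (3.74-fold higher, adjusted p = 0.0127), but on 1 of its 3 probe sets, and the call ended without A0 (0.0602) or B0 (0.114). Among 14 probe sets of chemokines and cytokines 0 passed (0 higher and 1 lower with the block), with a median change of -0.20. The 1 called with the block was Mif, the macrophage migration inhibitory factor (change -1.14 ± 0.35, adjusted p = 0.0885, 0.00114 with the block).

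Some genes that make ribosomes in the nucleolus fell at 39 °C. Of 30 probe sets for nucleolar ribosome biogenesis, 8 fell, 0 rose and 22 did not pass, with a median change of -0.67. The medians over the list on days 1, 2 and 3 of experiment A, each against day 0 of that experiment, were -0.60, -0.56 and -0.84, and in B2 the median was -1.0. Nop56, a core protein of the box C/D particles that guide methylation of ribosomal RNA, stood at 681 and 955 and then at 296, 22, 60 and 135. Ncl, nucleolin, stood at 4674 and 5638 and then at 1356, 798, 1999 and 1731. Gar1, a protein of the H/ACA particles that guide pseudouridylation, stood at 984 and 2173 and then at 196, 155, 240 and 564. The later arrays lay below both day 0 arrays in each. Nop56 was 4.75-fold lower (-2.25 ± 0.30, adjusted p = 0.000233), Ncl 3.69-fold (-1.88 ± 0.36, adjusted p = 0.0056) and Gar1 5.42-fold (-2.44 ± 0.51, adjusted p = 0.00979). The other decreases were those of Gnl3, nucleostemin (667 and 1281, then 461, 84, 166 and 221; 4.18-fold), Nolc1, a chaperone of nucleolar particles (647 and 848, then 326, -19, 228 and 167; 3.62-fold), Ebna1bp2 (2.38-fold on 1 of 2 probe sets), the helicase Ddx21 (at least 2.24-fold) and Bop1 (1.78-fold), all factors of large subunit assembly or rRNA synthesis. Nop56 and Ddx21 passed without any 1 sample. Without B0 2 of the 8 passed, and the calls of Gar1 (adjusted p = 0.198), Gnl3 (0.381), Ncl (0.0901), Nolc1 (0.161), Ebna1bp2 (0.146) and Bop1 (0.146) ended. That of Gnl3 also ended without A2 (0.0961), A3 (0.0963) or B2 (0.0538). For Ddx21 the bound was 3.51 without A0 and 1.43 without B0. With the lower floor the calls of Gar1 (0.0617), Gnl3 (0.0696) and Nolc1 (0.11) ended. Fbl, fibrillarin, the methyltransferase of the box C/D particles, stood at 1324 and 3504 and then at 421, 263, 477 and 1050, with no overlap; its change of -2.15 ± 0.62 passed with experiment as a block (adjusted p = 0.00424) and not without (0.0664).

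Myc, the transcription factor that drives ribosome production and cell growth, stood at 485 and 315 and then at 102, 179, 27 and 96, of which 1 later array was above the floor of its design. It was 2.61-fold lower (-1.39 ± 0.24, adjusted p = 0.00221) and passed without any 1 sample. Rpf2 and Mphosph10, 2 further proteins of ribosome assembly, fell from close to the floor: Rpf2 from 283 and 270 to 34, 22, 59 and 82 (at least 1.96-fold, adjusted p = 4.8e-05) and Mphosph10 from 226 and 241 to 146, 62, 75 and 96 (1.64-fold, adjusted p = 0.000427). Myc, Rpf2 and Mphosph10 were not on the list and were chosen after their values were seen. Eif6, which keeps the ribosomal subunits apart until the large one is mature, stood at 768 and 963 and then at 43, -663, -114 and 339. It was 4.9-fold lower (-2.29 ± 0.32, adjusted p = 0.000322) and passed without any 1 sample, but not on the arcsinh scale (adjusted p = 0.186).

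Eif6 was 1 of 5 decreases among 62 probe sets of translation factors and tRNA synthetases, with 1 increase and a median change of -0.58. Wars and Aars, the tryptophan and alanine tRNA synthetases, fell 2.88-fold (1135 and 1604, then 362, 519, 490 and 521; adjusted p = 0.014) and 2.1-fold (1168 and 1090, then 648, 500, 472 and 549; adjusted p = 0.0278). The decreases of Eef1g, a subunit of elongation factor 1, and Eif3b, a subunit of initiation factor 3, were 2.37-fold (adjusted p = 0.0239) and 2.26-fold (adjusted p = 0.0404). Eif4a2, a helicase of initiation, rose from 1360 and 1732 to 2652, 3861, 7278 and 5870 (2.98-fold, adjusted p = 0.0087). Without B0 1 of the 5 decreases passed, Eif6, and the calls of Wars (adjusted p = 0.21), Aars (0.145), Eef1g (0.263) and Eif3b (0.186) ended. Without A0 those of Aars (0.144), Eef1g (0.056), Eif3b (0.174) and Eif4a2 (0.0875) ended, while 8 probe sets of the list fell. Without A2 or A3 those of Aars (0.0537 and 0.0736), Eef1g (0.0657 and 0.0749) and Eif3b (0.0961 and 0.0647) ended, and that of Eif3b also without B2 (0.0739). The proteins of the ribosome itself did not follow: of 48 probe sets of cytosolic ribosomal proteins 0 rose and 0 fell, with or without the block, and of the 46 above the floor on all 6 arrays 31 had an interval within 2-fold. Rpl3, for example, changed by -0.11 ± 0.29 and Rps3 by 0.18 ± 0.39.

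A minority of the genes of DNA replication and mitosis fell. Of 37 probe sets for DNA replication and nucleotide synthesis 4 fell and 0 rose (8 and 0 with experiment as a block), with a median change of -0.56 and 3 of 37 changes above 0. Of 46 probe sets for mitosis and chromosome segregation 8 fell and 0 rose, with a median of -0.78 and 1 of 46 changes above 0. Over all tested probe sets with 1 symbol, 99 of 4947 fell and 2664 had a change above 0. Tk1, thymidine kinase of the salvage pathway, stood at 513 and 844 and then at 169, 127, 93 and 227. Umps, which makes uridine monophosphate, stood at 349 and 369 and then at 128, 60, 36 and 182. Cad, the enzyme of the first steps of pyrimidine synthesis, stood at 366 and 236 and then at -7, -43, -65 and 55. All later arrays lay below day 0 in the 3 genes, and those of Cad were at the floor. Tk1 was 3.96-fold lower (-1.99 ± 0.30, adjusted p = 0.000782), Umps 2.39-fold (-1.26 ± 0.20, adjusted p = 0.000982) and Cad at least 2.08-fold (-1.06 ± 0.14, adjusted p = 0.000303), and these 3 passed without any 1 sample. With the lower floor the call of Umps ended (adjusted p = 0.117), and on the arcsinh scale those of Umps (0.103) and Cad (0.194). The fall of Rrm2, a subunit of ribonucleotide reductase (2.99-fold, adjusted p = 0.0279, on 1 of 4 probe sets), ended without A0 (0.056), B0 (0.259), A2 (0.0808) or A3 (0.0924). Without A1 7 of the 37 fell. Pcna, the sliding clamp (change -1.0 ± 0.42, adjusted p = 0.277), and Mcm7, a subunit of the replicative helicase (-0.47 ± 0.30, adjusted p = 0.624), did not pass.

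The mitotic decreases were those of Cdk1, the kinase that starts mitosis, Top2a (2 probe sets), which untangles chromosomes, Incenp of the chromosomal passenger complex, Plk4, which duplicates centrioles, Dlgap5, a spindle protein, Ran, the GTPase of nuclear transport and spindle assembly, and H2az1, a histone variant. H2az1 stood at 6047 and 3507 and then at 2299, 1646, 1751 and 1569, 2.56-fold lower (-1.36 ± 0.28, adjusted p = 0.00773). Cdk1 stood at 2708 and 3239 and then at 1848, 1033, 1013 and 1708, 2.2-fold lower (-1.14 ± 0.28, adjusted p = 0.0288). In both the groups did not overlap. The count of mitotic decreases was 3 without A0, 3 without B0, 12 without A1, 3 without A2, 1 without A3 and 6 without B2. Each of the 8 calls ended in at least 1 of these fits, with adjusted p from 0.0537 (Dlgap5 without A3) to 0.54 (Plk4 without B0); that of H2az1 ended without A0 (adjusted p = 0.154), and that of Cdk1 without A0 (0.0741), B0 (0.263), A2 (0.0759) or A3 (0.0908). Mki67, the proliferation marker, was at 1712 and 1483 and then at 1165, 681, 690 and 958, with no overlap; its change, -0.91 ± 0.31, missed the threshold (adjusted p = 0.15). It was chosen after its values were seen.

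Of 15 probe sets for cyclins, their kinases, E2F and the pocket proteins 1 fell and 0 rose. This was Mybl2, a transcription factor of proliferating cells, which stood at 281 and 311 and then at -54, -128, -101 and 88. It was at the floor on every later array and at least 1.49-fold lower (-0.58 ± 0.09, adjusted p = 0.000649), without any 1 sample as well, though not on the arcsinh scale (0.286). Ccnd1, cyclin D1 (change 0.25 ± 0.33, adjusted p = 0.913), and its kinase Cdk4 (-0.10 ± 0.30, adjusted p = 0.998) did not pass. Of 56 probe sets for chromatin and high mobility group proteins 4 fell and 0 rose (8 and 0 with the block), with a median of -0.29. Hmga2, which bends DNA in proliferating embryonic cells, stood at 1992 and 1687 and then at 669, 162, 192 and 207. It was 6.75-fold lower (-2.76 ± 0.40, adjusted p = 0.000452), and its days 2 and 3 lay below its day 1. Ezh2, the methyltransferase of histone H3 in the Polycomb complex, stood at 373 and 350 and then at 144, 101, 68 and 180, 2.4-fold lower (-1.26 ± 0.17, adjusted p = 0.000322). Both passed without any 1 sample; on the arcsinh scale the calls of Hmga2 (adjusted p = 0.0936) and Ezh2 (0.0821) ended, and that of Ezh2 with the lower floor (0.123). H2ax, a histone variant of the DNA damage response, was 1.86-fold lower (adjusted p = 0.0431), on 1 of 2 probe sets; of the fits that left out 1 sample it passed in that without A1, and the adjusted p of the others ran from 0.079 to 0.222.

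Of 31 probe sets for inhibitors of cyclin-dependent kinases and targets of p53, 4 rose, those of Mdm2, Ccng1 and Gas1, and 0 fell (9 and 0 with experiment as a block), with a median change of 0.72 and 26 changes above 0. Mdm2, the ubiquitin ligase that p53 induces and that degrades it, stood at 1616 and 1071 and then at 3666, 5210, 4308 and 3513, with all later arrays above day 0. It was 3.13-fold higher (1.65 ± 0.37, adjusted p = 0.0152), and another of its 3 probe sets 2.94-fold (adjusted p = 0.0191). Ccng1, cyclin G1, also a p53 target, stood at 307 and 807 and then at 968, 2012, 2737 and 3868, 4.28-fold higher (adjusted p = 0.0192; 2.64-fold without A0 and 6.94-fold without B0). Gas1, a membrane protein of arrested cells, stood at 213 and 377 and then at 375, 1005, 3189 and 2061. Its day 1 array lay between the day 0 arrays, and it was 4.43-fold higher over all (adjusted p = 0.0411). None of these calls held in every fit: 1 probe set passed without A0, 1 without B0, 8 without A1, 2 without A2 and 2 without A3. The call of the first probe set of Mdm2 ended without B0 (adjusted p = 0.228), that of the other without A0 (0.11), B0 (0.115) or A2 (0.0543), that of Ccng1 without A0 (0.286) or A3 (0.0605), and that of Gas1 without A0 (0.287), B0 (0.109), A2 (0.0623), A3 (0.116) or B2 (0.0942). Cdkn1a, the p21 inhibitor that p53 induces, was at 221 and 142 and then at 188, 630, 300 and 563 on 1 probe set (change 1.09 ± 0.62, adjusted p = 0.537), and did not pass on the other (0.56 ± 0.55, adjusted p = 0.844).

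Among probe sets with 1 gene symbol, the largest increases were those of Crip2, Synpo and Col6a1. Crip2, a LIM-domain protein, stood at 172 and 78 and then at 3134, 1370, 3260 and 2342, and was 15.4-fold higher (3.94 ± 0.38, adjusted p = 5.47e-06). Synpo, synaptopodin, which binds actin and alpha-actinin, stood at 26 and 36 and then at 772, 1862, 2270 and 1113, so that it rose from the floor by at least 9.79-fold (3.29 ± 0.38, adjusted p = 5.37e-05). Gsn, gelsolin, which severs actin filaments, rose on 2 family probe sets, 2.89-fold (675 and 926, then 2097, 2058, 2335 and 2690; adjusted p = 0.00855) and 2.97-fold (adjusted p = 0.0355). These genes gave 5 increases among 78 probe sets of the actin cytoskeleton, with 0 decreases (1 with the block) and a median change of 0.01, which was -0.03 after median scaling. The calls of Crip2 on the probe set above and of Synpo passed without any 1 sample. Those of Gsn ended without A0 (adjusted p = 0.102 and 0.168), and the latter also without B0 (0.16), A2 (0.091) or B2 (0.0661). The other probe set of Crip2 (371 and 1452, then 3387, 1379, 3116 and 4609; 3.9-fold, adjusted p = 0.0368) overlapped between the groups, and its call ended without A0 (0.491), A1 (0.0667), A3 (0.0924) or B2 (0.0859). Cfl1, cofilin, which takes actin filaments apart, changed by 0.18 ± 0.36, with an interval within 2-fold. Among 25 probe sets of tubulins and microtubule proteins and 21 of keratins and other intermediate filaments 0 passed, with medians of 0.04 in each.

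Of 34 probe sets for collagen chains and the enzymes that modify them 4 rose and 0 fell (9 and 0 with the block), with a median of 0.37. Col6a1, a chain of collagen VI, stood at 122 and 98 and then at 830, 2051, 3297 and 1601, at least 8.74-fold higher (3.13 ± 0.50, adjusted p = 0.0013). Serpinh1, the collagen chaperone Hsp47, stood at 1542 and 2010 and then at 6244, 6975, 4312 and 4769 on 1 family probe set, 3.11-fold higher (1.64 ± 0.29, adjusted p = 0.00318), and was 2.53-fold higher on the other (adjusted p = 0.00694). P4ha1, a prolyl hydroxylase, stood at 613 and 440 and then at 792, 1130, 1774 and 1232, 2.28-fold higher (adjusted p = 0.0454). The later arrays lay above day 0 in each. Col6a1 and the first probe set of Serpinh1 passed without any 1 sample, while without B0 2 of the list rose and 1 fell, and without A1 7 rose. The other probe set of Serpinh1 did not pass without B0 (adjusted p = 0.08), and P4ha1 passed in the fit without A1, while the adjusted p of the other 5 fits ran from 0.0677 to 0.416. Agrn, agrin, a heparan sulfate proteoglycan of basement membranes, stood at 85 and 199 and then at 517, 1454, 961 and 817, 5.23-fold higher (2.39 ± 0.42, adjusted p = 0.00284), also without any 1 sample. With Mgp, matrix Gla protein (at least 5.21-fold on 1 of 2 probe sets, adjusted p = 0.00773, 0.0779 without B0 and 0.101 with the higher floor), it made up 2 increases, beside 1 decrease, among 37 probe sets of proteoglycans, laminins and other matrix proteins (2 and 3 with the block; median 0.31). The decrease was that of Ccn2, a matricellular protein that TGF-beta induces, from 1161 and 1754 to 393, 83, -23 and 311 (6.43-fold, adjusted p = 0.0036, 0.0716 without B0). Matrix proteases and their inhibitors gave 2 increases and 0 decreases among 24 probe sets (2 and 2 with the block; median 0.13). These were Plat, tissue plasminogen activator (848 and 201, then 1189, 2954, 2800 and 1224; 4.51-fold, adjusted p = 0.0278), and Serpinf1, an inhibitor of vessel growth (2.29-fold, adjusted p = 0.0456). Plat did not pass without B0 (0.598), A2 (0.0865) or A3 (0.0918), and its fold was 9.27 without A0 and 2.2 without B0; Serpinf1 passed in no fit that left out 1 sample but that without A1 (0.0575 to 0.209). Among integrins, cadherins and junction proteins 0 of 41 passed (1 higher with the block; median 0.06). Dcn, decorin, a collagen-binding proteoglycan, stood at 89 and 61 and then at 180, 2281, 6777 and 1218. Its change of 2.81 ± 0.92 did not pass (adjusted p = 0.119). Dcn was chosen after its values were seen.

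Of 45 probe sets for secreted growth factors and their pathways (IGF, TGF-beta, Wnt and FGF) 5 rose and 0 fell (7 and 1 with the block), with a median of 0.17. Tgfb3, a TGF-beta ligand, stood at 108 and -3 and then at 332, 710, 1063 and 558, at least 4.34-fold higher (2.12 ± 0.39, adjusted p = 0.00361). Pdgfa, a ligand of the platelet-derived growth factor receptors, stood at 189 and 167 and then at 615, 551, 896 and 539 (3.58-fold, adjusted p = 0.00386). Smad1, which carries signals of bone morphogenetic proteins to the nucleus, stood at 219 and 318 and then at 588, 816, 1369 and 1458 (3.75-fold, adjusted p = 0.00874). All later arrays lay above day 0 in these 3. The others were Igfbp2, an IGF-binding protein (at least 7.86-fold, adjusted p = 0.00773), and Sfrp2, a secreted Wnt antagonist (2.75-fold, adjusted p = 0.0294). Tgfb3 passed without any 1 sample, though not with the higher floor (adjusted p = 0.0861). Without B0 2 of the 5 passed, and the calls of Pdgfa (0.0542), Igfbp2 (0.077) and Sfrp2 (0.191) ended. Those of Smad1 (0.0977) and Sfrp2 (0.103) ended without A0, and that of Sfrp2 without A3 (0.0941) or B2 (0.0573). That of Igfbp2 ended with the higher floor (0.059).

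Of 45 probe sets for lysosomal genes, 4 rose, those of Grn, Ctsd and Ctsa, and 0 fell (11 and 0 with experiment as a block). The median change was 0.74 and 41 changes were above 0. All later arrays lay above both day 0 arrays in 18, against 389 of all 4947 tested probe sets with 1 symbol. The list medians were 0.25, 0.63 and 0.79 on days 1, 2 and 3 of experiment A and 0.99 in B2. Grn, progranulin, stood at 479 and 712 and then at 1902, 3060, 3724 and 2213, 4.51-fold higher (2.17 ± 0.35, adjusted p = 0.00126), and another of its 3 family probe sets rose 3.24-fold (adjusted p = 0.00546). Ctsd, the aspartic protease cathepsin D, stood at 1708 and 1929 and then at 5172, 6372, 10439 and 7915, 3.98-fold higher (1.99 ± 0.40, adjusted p = 0.00739). Ctsa, protective protein cathepsin A, stood at 163 and 110 and then at 283, 843, 1147 and 906 (4.66-fold, adjusted p = 0.00377; its other probe set, adjusted p = 0.0704, did not pass). The groups did not overlap in any of these. Without B0 1 of the 4 passed, that of Grn first given, and the calls of the other Grn probe set (adjusted p = 0.142), Ctsd (0.0571) and Ctsa (0.0543) ended; without A0 7 of the list rose and the call of Ctsd ended (0.056), and without A1 8 rose. That of Ctsa ended with the higher floor (0.0528). Psap, prosaposin, changed by 0.87 ± 0.27, which passed with the block (adjusted p = 0.0248) and not without (0.0842). Gabarap, a ubiquitin-like protein of autophagosomes, was not on the list and was chosen after its values were seen: it stood at 2010 and 1410 and then at 3439, 7062, 5557 and 3854 (2.84-fold, adjusted p = 0.00739, 0.144 without B0).

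Among 43 probe sets for glutathione, antioxidant and metal handling genes 3 rose and 0 fell (median 0.07). Nfe2l2, the transcription factor Nrf2 of the antioxidant response, stood at 220 and 259 and then at 487, 684, 1125 and 865 (3.16-fold, adjusted p = 0.00329, also without any 1 sample). Cat, catalase, stood at 127 and 153 and then at 425, 357, 399 and 434 (2.74-fold, adjusted p = 0.0126), a call that ended without A0 (0.077) or B0 (0.0809) and with the higher floor (0.351), and Gstm2, a glutathione transferase, was 3.28-fold higher (adjusted p = 0.0404; 0.26, 0.113, 0.0938 and 0.0538 without A0, B0, A3 or B2). Among 19 probe sets for lipoprotein receptors and lipid transport 3 rose and 1 fell (4 and 1 with the block; median 0.40). Pltp, phospholipid transfer protein, stood at 120 and 54 and then at 375, 497, 1362 and 899, at least 4.9-fold higher (2.29 ± 0.42, adjusted p = 0.00339, and 0.0672 with the higher floor). The list also held Aldh1a1, which makes retinoic acid (4.24-fold higher, adjusted p = 0.0219), the retinoic acid receptor Rarg (2.72-fold higher, adjusted p = 0.0448) and the fatty acid-binding protein Fabp5 (3.49-fold lower, adjusted p = 0.0213), whose calls ended without B0 (0.315, 0.404 and 0.254), without A2 (0.0637, 0.114 and 0.0663) and without A3 (0.0662, 0.0944 and 0.0528), those of Rarg (0.0649) and Fabp5 (0.0535) also without A0. Without B0, A2 or A3 1 of the 3 increases passed. Among 33 apoptosis regulators 2 rose and 1 fell (3 and 1 with the block; median 0.27). The increases were those of Ypel3, a growth-suppressing protein (2.55-fold, adjusted p = 0.0075, 0.128 without B0), and Pdcd4, an inhibitor of translation initiation (2.98-fold, adjusted p = 0.0191, 0.099, 0.117 and 0.0605 without A0, B0 or A3; with the higher floor the change was 0.68, adjusted p = 0.402), and the decrease was that of Cycs, cytochrome c, given with the mitochondrial genes.

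Of 34 probe sets for heat shock and protein folding 1 rose and 1 fell (2 and 2 with the block), with a median of 0.01. Over all 4947 tested probe sets with 1 symbol 90 rose and 99 fell, so 1 call in a list of 27 to 34 is near that share. Cryab, the small heat shock protein alpha B-crystallin, stood at 1413 and 1504 and then at 2732, 4063, 4373 and 3635, 2.5-fold higher (1.32 ± 0.27, adjusted p = 0.00773; 0.056 and 0.064 without A0 or B0) on 1 of 2 probe sets. Hspd1, the mitochondrial chaperonin Hsp60, stood at 9128 and 5796 and then at 3617, 3223, 3356 and 2649, 2.28-fold lower (-1.19 ± 0.30, adjusted p = 0.0282). That call ended without A0 (0.289), A2 (0.0637), A3 (0.0578) or B2 (0.0666). Hspa8, the constitutive Hsp70, changed by 0.44 ± 0.42 (adjusted p = 0.83), and Hsp90aa1, the inducible Hsp90, chosen after its values were seen, by -0.18 ± 0.29 on its tighter probe set (adjusted p = 0.934). Among 10 probe sets of the cytosolic chaperonin, the ring that folds actin and tubulin, 8 had every later array below day 0. Over all 4947 tested probe sets with 1 symbol 454 did. The median of the list was -0.95 with 0 changes above 0, and 1 fell (4 with the block). The fall was that of Cct3 (488 and 770, then 314, 130, 200 and 261; 2.8-fold, adjusted p = 0.0448) on 1 of its probe sets, and it passed in the fit without A1 alone among those that left out 1 sample (adjusted p otherwise from 0.0512 to 0.398). Cct2 changed by -0.75 ± 0.30 (adjusted p = 0.251, 0.0175 with the block). Of 27 probe sets for endoplasmic reticulum stress and folding 1 fell and 0 rose, with a median of 0.00. It was Asns, asparagine synthetase, 4.2-fold lower (adjusted p = 0.00323), and Hspa5, the reticulum's own Hsp70, changed by 0.05 ± 0.36 (adjusted p = 1).

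Of 60 probe sets for splicing and hnRNP proteins 4 fell and 0 rose (8 and 0 with the block; median -0.44). Syncrip, an RNA-binding protein of the hnRNP family, stood at 1619 and 1142 and then at 410, 276, 401 and 250 (4.17-fold lower, adjusted p = 0.00671, 0.0741 without A0) and fell 2.4-fold on another probe set (adjusted p = 0.0153). The other 2 were Hnrnpab (3.01-fold, adjusted p = 0.0402) and U2af2, which recognises the 3′ splice site (at least 1.52-fold, adjusted p = 0.00979). Without B0 the last 3 did not pass (0.27, 0.34 and 0.145), which left 1. Without A3 the calls of that Syncrip probe set (0.0537) and Hnrnpab (0.116) ended, which left 2, and that of Hnrnpab, on 1 of 3 probe sets, also ended without A0 (0.0824) or A2 (0.113). Of 57 probe sets for the constitutive proteasome and ubiquitin system 3 fell and 2 rose (median -0.53). All later arrays lay below both day 0 arrays in 24, against 454 of all 4947 tested probe sets with 1 symbol. Ube2h, a ubiquitin-conjugating enzyme, stood at 312 and 17 and then at 736, 1386, 2240 and 1502 (6.49-fold higher, 2.70 ± 0.37, adjusted p = 0.0003, also without any 1 sample). The decreases were those of the deubiquitinases Usp14 (3.29-fold, adjusted p = 0.00979) and Uchl5 (2.82-fold, adjusted p = 0.0112) and the proteasome subunit Psmd12 (2.17-fold, adjusted p = 0.0209), and 0 of the 3 passed without B0 (0.169, 0.144 and 0.192). That of Psmd12 also ended without A0 (0.0679). Of 54 probe sets for oxidative phosphorylation 4 fell and 0 rose (4 and 1 with the block), with a median of -0.07, which was 0.00 after quantile normalization. They were 3 family probe sets of Slc25a5, the ADP/ATP carrier of the inner membrane (3247 and 4136, then 1043, 437, 567 and 964 on the first; 3.42-fold to 5.19-fold lower), and 1 of Cycs, cytochrome c (2.55-fold lower, adjusted p = 0.0264). All 4 ended without B0 (adjusted p from 0.0946 to 0.146), and that of Cycs also without A0 (0.174), A2 (0.0827) or A3 (0.0736).

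Of 28 probe sets for glycolysis and lactate 1 rose, the family probe set of Ldhb, a lactate dehydrogenase subunit, from 76 and 74 to 883, 862, 1042 and 807 (at least 4.52-fold, 2.17 ± 0.37, adjusted p = 0.0021, also without any 1 sample), while its other probe set did not pass (1.76, adjusted p = 0.0788). Of 16 probe sets for cholesterol and fatty acid synthesis 0 passed (1 lower with the block; median -0.14). Of 35 for immediate early and growth response genes 1 fell, Ccn2, and 0 rose (2 and 1 with the block; median 0.00). In a list of 28 or 35, 1 call is near the share over all 4947 tested probe sets with 1 symbol (90 higher and 99 lower).

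Genes of the cell types of the cochlea gave 1 call, near the share over all 4947 tested probe sets with 1 symbol (90 higher and 99 lower). Of 10 probe sets of a hair cell list 0 passed, with a median of 0.05. Myo7a, the unconventional myosin of hair cells, stood at 300 and 198 and then at 381, 252, 251 and 225, which overlapped (change 0.16 ± 0.40, adjusted p = 0.99; chosen after its values were seen). Of 43 probe sets for supporting cells and otic development 1 rose and 0 fell (2 and 1 with the block), with a median of 0.29 and 31 changes above 0. This was Notch3, a Notch receptor, which stood at 312 and 178 and then at 724, 907, 1979 and 1558. All later arrays lay above day 0, and the increase was 4.8-fold (2.26 ± 0.40, adjusted p = 0.0031), but the call ended without B0 (0.0716), which left 0 on the list. Id2, an inhibitor of basic helix-loop-helix factors, changed by 1.25 ± 0.40 and passed with the block (adjusted p = 0.0311) and not without (0.107).

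Defining markers of the cell types that such a culture could hold were read apart from these lists. Of the markers of these 8 lists 0 passed. Of the hair cell markers, 6 of 17 genes were on the arrays, Atoh1, Gfi1 and Ocm were never above the floor, and the summed level was 816 to 1339 on day 0 and 792 to 1452 later. Of the markers of supporting and otic epithelial cells, Cdh1, Epcam, Fgfr3, Gjb2, Gjb6 and Sox2 were never above the floor (10 of 17 genes on the arrays; 4862 to 6686, then 2795 to 5478). Cdh1 and Epcam mark epithelial cells in general, and of the keratins of simple epithelia on the same list, Krt18 was above the floor on all 6 arrays (5437 and 4234, then 3147, 4168, 1597 and 2844), while Krt8 was above it on some. Pax2, an early otic marker, was also above it on some arrays. The summed level of fibroblast and mesenchymal markers was 6757 to 8779 and then 5411 to 12674 (12 of 13 genes; Col1a2, Lum, Pdgfra, Prrx1 and Thy1 never above), and that of skeletal and cardiac muscle markers 8115 to 11933 and then 7208 to 13045 (15 of 15; Acta1, Myf6, Myl4 and Tnnc1 never above). Endothelial markers summed to 1303 to 1328 and then 1028 to 2105 (9 of 11; Cdh5, Flt1, Pecam1 and Tek never above), macrophage and blood cell markers to 2904 to 7806 and then 4437 to 9376 (11 of 14; Csf1r, Itgb2 and Spi1 never above), melanocyte and glia markers to 1191 to 2668 and then 1433 to 4163 (11 of 13; Cnp, Kit, Mitf and Tyrp1 never above), and neuron markers to 1384 to 2641 and then 1293 to 2218 (11 of 13; Nefh, Nefm, Neurod1, Ntrk2, Prph, Snap25 and Syt1 never above). In every list the later range overlapped that of day 0. The sums pool both designs and follow bright genes such as Vim (6719 and 5831, then 3427, 2529, 2421 and 6878), so they can hide dimmer markers. Some markers were above the floor on later arrays alone, without passing. They included Dcn, Postn (-49 and 10, then 36, 326, 1067 and 284), Gata3 (151 and 190, then 11, 138, 473 and 364) and Col3a1 on 1 probe set. Fcgr3 went the other way (267 and -99, then 104, 135, -60 and -87). Other markers were above the floor on all 6 arrays on at least 1 probe set. They were Myo7a and Calb2 of hair cells, Twist1 and Vim of fibroblasts, Cd34 of endothelium, Dct and Gfap of melanocytes and glia, and Tubb3 of neurons. Of muscle they were Myog, Ckm, Mb and Actc1 (family probe sets), and of blood cells Lyz2, Ptprc, Fcer1g, Cd14 and Hba-a1 (family probe set).

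**Figure D2:**
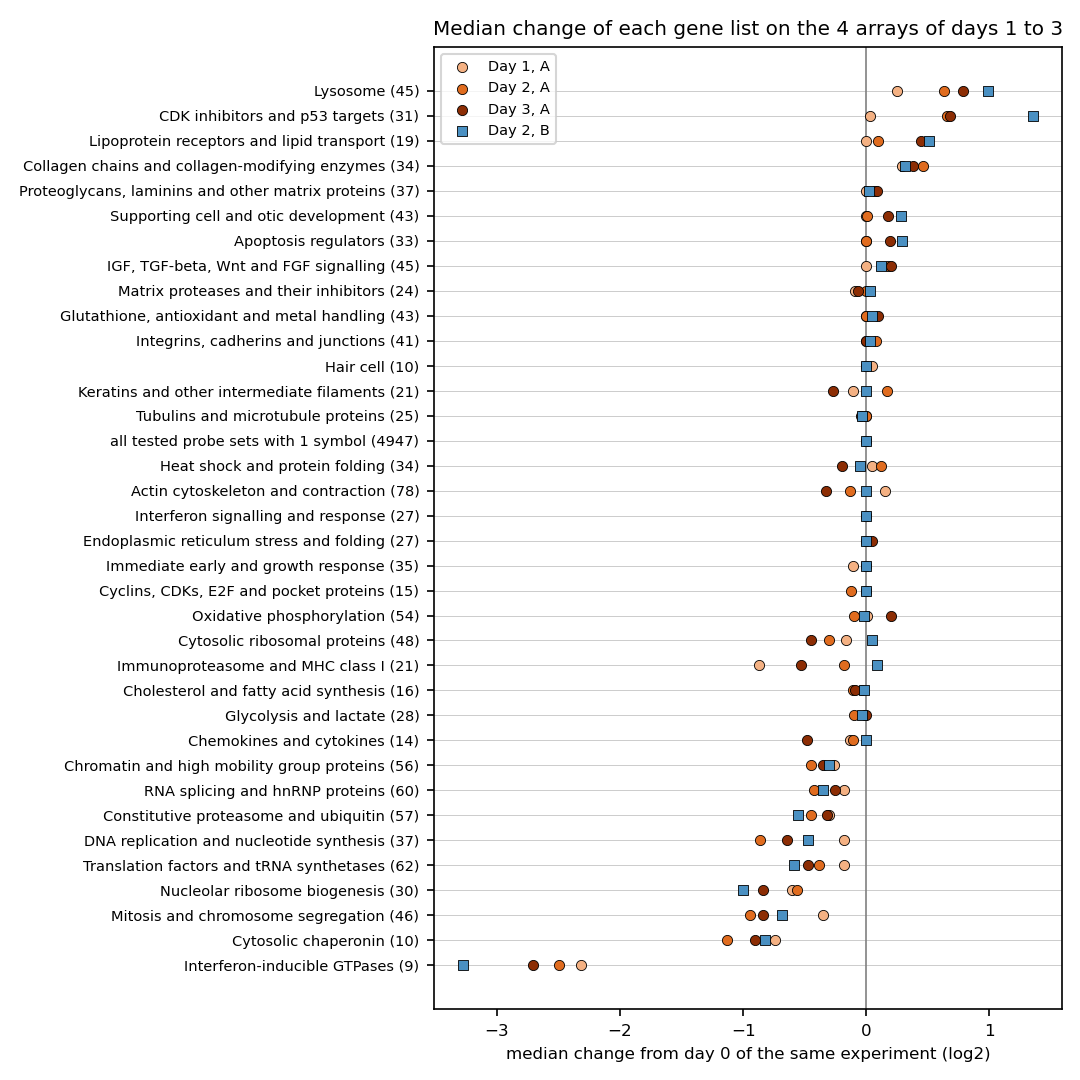
Median log2 change of each gene list on each of the 4 later arrays, relative to day 0 of the same experiment (rows are lists, the horizontal axis is the median change, 1 point per array). The 4 points of the interferon-inducible GTPases lie between -3.28 and -2.32, those of the cytosolic chaperonin, mitosis and nucleolar lists lie below 0, and those of the lysosome list between 0.25 and 0.99.

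**Figure D3:**
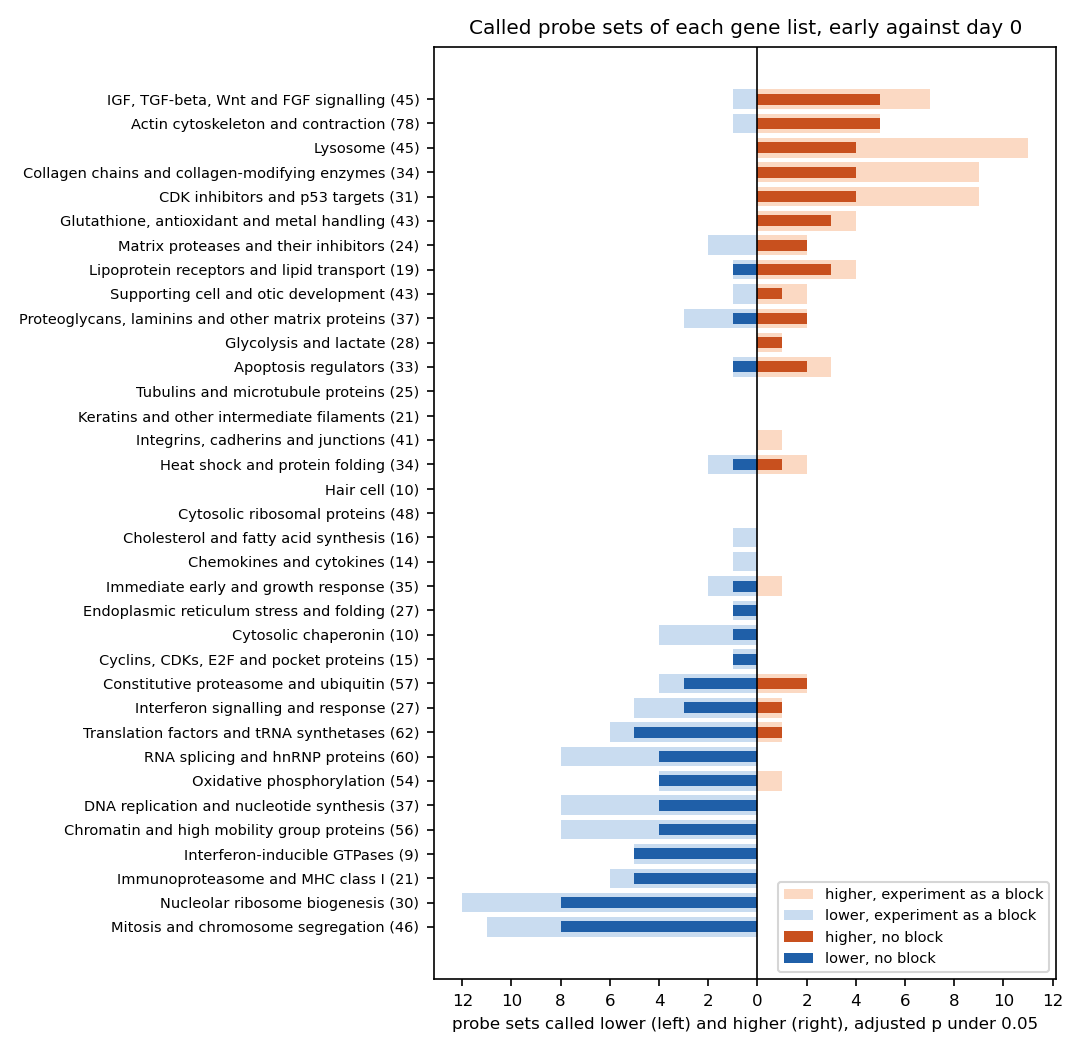
Number of probe sets that passed in each gene list, lower to the left and higher to the right of 0. Dark bars are the fit without a block and pale bars the fit with experiment as a block; the lysosome list goes from 4 to 11 increases and the chaperonin list from 1 to 4 decreases.

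Day 1 was measured in 1 RNA sample, A1, so that the contrasts with day 1 describe that sample and have no replicate of their own. On day 1 alone, 46 probe sets differed from day 0 (0.595%), 22 higher and 24 lower, with the lone day 1 array taken to vary like the other groups. Of these, 5 were above the floor on all 6 arrays. The named decreases were those of Iigp1 (-5.71 ± 0.66, adjusted p = 0.000162), Igtp (-4.44 ± 0.67, adjusted p = 0.00231), Psmb10 (-4.08 ± 0.36, adjusted p = 1.77e-05), Gbp2 (-3.26 ± 0.53, adjusted p = 0.0043), Gbp3, Eif6, Pgs1, Dnajc2, Umps, Ezh2, Cad, Rpf2, Mphosph10, Mybl2 and H2-Aa. Named increases were those of Crip2 (4.33 ± 0.54), Synpo (2.45 ± 0.48) and Ass1, the argininosuccinate synthase of arginine synthesis (2.15 ± 0.42). Another was that of Lxn, latexin, a carboxypeptidase inhibitor (1.62 ± 0.34). On day 0, Synpo and Ass1 lay below the floor on both arrays and Crip2 on 1, while Lxn lay above it on both. Lxn stood at 403 and 417 and then at 1263, 985, 1126 and 1244, so that its day 1 value was already as high as the later ones. The other 8 named increases (Cyct, Ccdc130, Clcn6, Hmmr, Msx2, Gpsm3, Chaf1b and Eps15l1) rested on day 1 values of 213 to 528 against values at or near the floor. The count ran from 3 with a filter of 8 arrays above the floor to 170 with the 6 arrays alone.

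The day 1 values of probe sets called over the 3 days were set beside the later ones as a description. Among called probe sets above the floor on all 6 arrays, the median change against day 0 of the same experiment was 1.06, 1.63 and 1.69 on days 1, 2 and 3 of experiment A and 1.59 in B2 for the 72 increases, and -1.24, -1.74, -1.59 and -1.41 for the 62 decreases. Of the 66 increases that were at least 2-fold on day 3 of experiment A, 43 had reached at least 50% of that log2 change on day 1 and 6 less than 25%. Of the 56 decreases of that size, the numbers were 43 and 1. These shares share the day 0 array and carry no test. The calls rest on a mean that includes A1, so a gene that lagged on day 1 was less likely to be among them.

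Days 2 and 3 differed from day 1 in 21 probe sets (0.272%), 3 higher and 18 lower, of which 0 were above the floor on all 6 arrays. Ctsa rose after day 1 on a probe set that read 38 and 234 on day 0, 129 on day 1, and then 992, 1492 and 1419 (2.69 ± 0.39). Cd47, the integrin-associated protein that signals against engulfment, read 44 and 293, then 237, and then 914, 1627 and 1368 (2.42 ± 0.45, adjusted p = 0.025). Hmga2 fell further, from 669 on day 1 to 162, 192 and 207 (-1.74 ± 0.34, adjusted p = 0.0314). The decreases of Cyct, Ccdc130, Clcn6, Hmmr and Gpsm3 were the return of the same day 1 values to the floor, and that of Dctpp1, a nucleotide phosphatase, went from 356 to -189, 123 and 78 (-1.34 ± 0.21, adjusted p = 0.00386). The count was 2 with a filter of 8 arrays above the floor, 0 on the arcsinh scale and 162 with the 6 arrays alone.

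**Figure D4:**
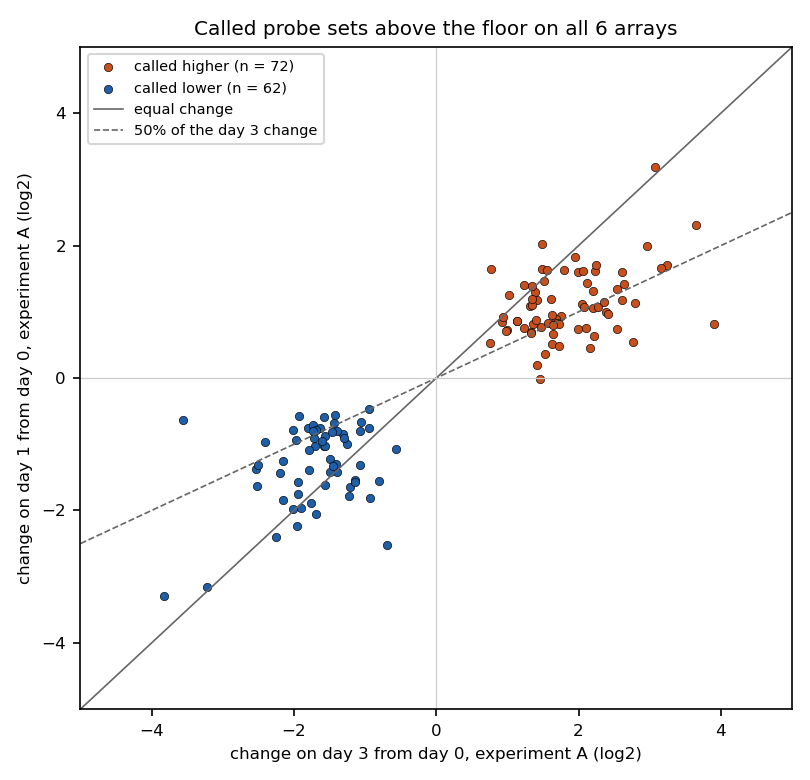
Log2 change on day 1 against that on A3, each relative to day 0 of that experiment, for the called probe sets above the floor on all 6 arrays (72 higher in orange, 62 lower in blue). The solid line marks equal changes, and along the dashed line the day 1 change is smaller than that on A3. The median of the increases was 1.06 on day 1 and 1.69 on day 3, and that of the decreases -1.24 and -1.59.

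The early change differed between experiments A and B in 55 probe sets (0.712%), more positive in A in 40 and in B in 15, of which 0 were above the floor on all 6 arrays. The change in B is that of 1 array against 1 (B2 and B0), without a replicate in that experiment. The named ones included Timm8a1, a mitochondrial import protein, which read 145 and 520 on day 0 in A and B and was at the floor later (difference 1.84 ± 0.18, adjusted p = 0.000877), and Inhbb, an inhibin and activin subunit, which read 103 and 118 and then 6, 98 and 227 in A and 602 in B (-1.54 ± 0.20, adjusted p = 0.00911). In Timm8a1, Fosl1, Idh3a, Farsa, Iars2, Slc6a6 and Eif3d B0 was the highest of the 6 arrays. The count was 0 with a filter of 8 arrays above the floor and on the arcsinh scale, and 385 with the 6 arrays alone.

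The probe sets of highest intensity whose interval stayed within 2-fold were those of Cfl1, Rps28, Rps3, Rpl19, Rplp0, Rps18, Actg1, Rpl23, Rpl3 and Tuba1a, the housekeeping proteins of the ribosome and cytoskeleton. Their changes ran from -0.19 (Rps18) to 0.32 (Rpl23).

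Increases not covered by the lists were also found in every fit that left out 1 sample, in the next order of size. Ass1 stood at -218 and 32 and then at 881, 1218, 839 and 1527 on a family probe set, at least 5.47-fold higher (2.45 ± 0.31, adjusted p = 0.000122). Mapk8ip1, a scaffold of the JNK pathway, stood at -80 and 195 and then at 367, 622, 607 and 766 on 1 of 2 probe sets (3.44-fold, 1.78 ± 0.31, adjusted p = 0.00214). The groups did not overlap in either. Cpt1a, the carnitine palmitoyltransferase that admits fatty acids to mitochondria, stood at 150 and 160 and then at 329, 737, 1038 and 705 (4.19-fold, adjusted p = 0.00773), a call that ended without B0 (0.0638) and with the higher floor (0.0932).

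Of the called probe sets without a gene symbol, 20 were higher and 54 lower. The largest decreases among them were that of a probe set at 3489 and 3522 and then at 141, 156, 115 and 269 (16.4-fold) and that of aa538285_g_at (2622 and 4468, then 269, 235, 184 and 688; 11.4-fold), and the largest increases those of x60367-2_s_at (216 and 158, then 484, 2208, 6393 and 2839; 10.1-fold) and X70296_s_at (102 and 140, then 708, 1401, 2131 and 3929; at least 8.57-fold). The call of x60367-2_s_at ended without B0 (adjusted p = 0.0506).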

How the data were processed

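Total RNA of UB/OC-1 cells was hybridised to both designs of an oligonucleotide array set. The deposited values are array intensities, linear whole numbers scaled by the authors to a trimmed mean (2% left out at each end) of 300.4 to 300.8 on every array, as the values show, with 22.9% of those of design a below 0 and 33% of those of design b. They were used as deposited. Which software and background correction made them is not given in the sources used here. Control probe sets (61 per design) were left out. Of the 6584 probe sets of design a, 5541 had 1 gene symbol, 197 several and 785 none, and of the 6595 of design b 2001, 27 and 4506, from the platform annotation with symbols updated through RefSeq. Names ending in f_at mark probe sets that match several members of a gene family, which leaves the gene open to doubt; beside those called so in the text, this holds for Actg1, B2m, Ccnd1, Cct3, Cdkn1a, Cfl1, Cryab, Ctsa, Cycs, Eef1g, Fabp5, H2-K1, Hmmr, Hspa5, Hspa8, Mgp, Mif, Nolc1, Ppia, Psap, Ran, Rarg, Rpl19, Rpl23, Rplp0, Rps18, Rps28, Rps3, Top2a and Tuba1a, and for some probe sets of H2-Aa and Hsp90aa1.

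Values below a floor, the 75th percentile of the absolute negative values of a design, were raised to it and log2 was taken. A probe set was tested if above the floor on at least 2 of the 16 arrays of its design (4294 and 3432). A fold is a lower bound if the dimmer group never rose above the floor, and a low estimate if it did so on some arrays. The test was that of limma 3.58.1 under R 4.3.3 (two-sided; lmFit and then eBayes, trend and robust) on all 16 arrays of a design in 4 phases (day 0, days 1 to 3, days 4 to 7, days 8 to 14; 12 residual degrees of freedom, 11 with day 1 apart), with Benjamini-Hochberg adjustment over both designs and a threshold of 0.05. Each change is a difference of log2 means, given ± its standard error. The fit was tested on simulated data.

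The titles share an experiment between days, and differences between experiments A and B on the 4 days that both hold correlated across probe sets (r from 0.274 to 0.726 over 6 pairs of days per design), so experiment pairs the samples. Alternatives were the block, experiment A alone, quantile and median scaling, a lower and a higher floor, no filter and one of 8 arrays, the arcsinh scale, plain eBayes, the 6 arrays alone, days 1 and 2 alone, a noise covariate, adjustment within each design, 1 probe set per gene in the lists, and leaving out each RNA sample.

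Named were called genes ranked 11 to 30 by size in each direction, up to 4 called genes per direction and 2 bright uncalled genes of each of 35 lists, up to 10 per direction of the other contrasts, the 10 brightest bounded probe sets and the defining markers. A gene that the rule named is not reported here. Genes outside this rule are marked in the text, were among the 10 largest changes, or complete the calls of a list. Cdk1, Plk4, Dlgap5, Aars, Ebna1bp2, Bop1 and Sfrp2 are of the last kind. The samples, lists and rules were chosen with earlier results of these data known. Lists are described by counts and medians, with no test. Promoter windows came from RefSeq (GRCm38.p6), and 3404 of 4214 tested genes matched one by symbol.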

Additional observations from a re-analysis of the deposited data

Results flagged for a closer look

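Of 203 named probe sets, those above the floor on at least 3 of the 4 later arrays were examined. In 5 of these, 1 of the 4 later arrays lay far from the other 3. This was judged by its gap to the nearest array as a share of the whole range. Chance alone sets about 1 in 20 examined groups apart in this way, and the number examined, below 203, was not counted. Ralgds, a guanine nucleotide exchange factor, was lowest on day 2 of experiment A at a log2 intensity of 8.51, with the nearest array at 9.05. Mthfd2, an enzyme of mitochondrial folate metabolism, was lowest on day 2 of experiment B (7.14, nearest 8.20), and so was the ribosomal protein gene Rpl19 (12.96, nearest 13.66). Ppia, cyclophilin A, was highest on day 1 of experiment A (13.70, nearest 13.24), and Wars was lowest on the same day (8.50, nearest 8.94). The change of U2af2 differed between the experiments by 0.67 on the log2 scale, A minus B (adjusted p = 0.037 for the interaction); it read 239 and 380 on day 0 and was below the floor on every later array, so that the difference is that of the day 0 arrays.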

How the results depend on the processing

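The counts of changed probe sets depended on the processing more than their directions did. With experiment as a replicate block 469 passed over days 1 to 3 (202 higher, 267 lower; 1438 bounded within 2-fold), 74 on day 1 and 35 in days 2 and 3 against day 1, and the block ended no named call. Adding a covariate for array noise gave 451 (200 and 251; 1450 bounded). In experiment A alone 173 passed (43 higher; 522 bounded), with 117 on day 1 and 57 between day 1 and days 2 and 3. On the arcsinh scale 175 passed (113 higher, 62 lower), 9 on day 1, 0 between day 1 and the later days and 0 between the experiments. Fitting the 6 arrays alone left 15 (5 higher, 10 lower), and gave 170, 162 and 385 in the other 3 contrasts. With days 1 and 2 alone 172 passed (70 and 102). The lower floor gave 98 decreases beside 121 increases, and 27, 12 and 8 in the other contrasts. The higher floor gave 1329 bounded, 78 on day 1 and 226 between the experiments. No filter gave 184, with 74 increases, and 91, 69 and 336. The filter of 8 arrays gave 208, with 95 decreases, and 3, 2 and 0. Between the experiments quantile normalization gave 225, median scaling 106 and plain eBayes 126.

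The share of increases among the calls was 41.5%, and ran from 24.9% in experiment A alone to 64.6% on the arcsinh scale. Without 1 RNA sample the count ran from 126 to 338, the increases from 36 to 161, the decreases from 90 to 203, the bounded probe sets from 261 to 736, and the other 3 contrasts from 41 to 126, 16 to 32 and 40 to 60. Among 169 named probe sets, which include bright ones that were not called, 84 calls ended with the 6 arrays alone. On the arcsinh scale 30 ended, and with the lower floor 25. Many also ended in the fits that left day 0 with 1 RNA sample. No call of a named gene changed direction in the alternatives run. The causes were not tested. With 1 probe set per gene, the immunoproteasome list gave 3 decreases, the splicing and oxidative phosphorylation lists 2 each, the chaperonin list 0, the lysosome list 2 increases and the actin list 3. The noise of experiment A's arrays limits what can be read near the floor.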

Other observations

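Phgdh, Asns, Mthfd2 and Gcsh, genes of serine, asparagine and one-carbon metabolism, were picked after their decreases were seen. Asns is the decrease already given for the endoplasmic reticulum stress list, and the others are on no list. The remaining members of these pathways were not counted. Phgdh, the first enzyme of serine synthesis, stood at 3464 and 2908 on day 0 in experiments A and B, at 1297, 706 and 1317 on days 1, 2 and 3 of experiment A and at 789 on day 2 of experiment B. Asns, asparagine synthetase, stood at 1710 and 1512 and then at 635, 247, 372 and 370. Mthfd2 stood at 1605 and 877 and then at 331, 323, 294 and 136. All later arrays lay below day 0 in the 3 genes. Phgdh was 3.21-fold lower (-1.68 ± 0.32, adjusted p = 0.00478), Asns 4.2-fold (-2.07 ± 0.37, adjusted p = 0.00323) and Mthfd2 4.6-fold (-2.20 ± 0.47, adjusted p = 0.0113). The call of Mthfd2 ended without day 0 of experiment A (0.145), and the other calls passed without any 1 sample. Gcsh, a protein of the glycine cleavage system, fell at least 1.61-fold from close to the floor (203 and 253, then 100, 55, 130 and 108; adjusted p = 0.00195).

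H2-Aa, a chain of MHC class II, which presents peptides from outside the cell, was on no list and passed on day 1 on 1 of its 5 probe sets, with 1 array behind that day. It stood at 3382 and 2584 on day 0, at 591, 1020 and 2096 on days 1, 2 and 3 of experiment A, and at 1098 on day 2 of experiment B. Its change on day 1 was -2.32 ± 0.45 (adjusted p = 0.0217). H2-Ab1 stood at 1845 and 1935 and then at -84, 614, 1838 and 1584, and Cd74, the invariant chain, at 12473 and 8223 and then at 3824, 4657, 13962 and 10475. On day 3, H2-Ab1 was thus just below both day 0 arrays and Cd74 above both. Neither passed on day 1 (H2-Ab1 -3.25 ± 0.97, adjusted p = 0.235; Cd74 -1.41 ± 0.56, adjusted p = 0.53) or in days 2 and 3 against day 1 (adjusted p = 0.572 and 0.889). The 4 other probe sets of H2-Aa did not pass on day 1 (adjusted p from 0.128 to 0.946), and the call of H2-Aa over all 3 days (-1.45 ± 0.37, adjusted p = 0.0353) ended without day 0 of experiment A (0.219) or B (0.12), day 1 (0.0631) or day 2 (0.0777) of A, or day 2 of B (0.0553).

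A few further decreases, picked in the same way, lay outside the lists. Xpo1, the main nuclear export receptor, stood at 414 and 397 and then at 204, 89, 97 and 200 (2.4-fold lower, adjusted p = 0.00334) and fell 1.66-fold on another probe set (adjusted p = 0.00181), while its remaining 2 did not pass (adjusted p = 0.836 and 0.961). Dnajc2, a chaperone that rides on the ribosome, fell at least 2.87-fold (491 and 334, then 82, 42, 105 and 77; adjusted p = 5.37e-05). Tomm70a, a receptor of the outer mitochondrial membrane, fell 2.81-fold (adjusted p = 0.00508, 0.059 without day 0 of experiment B).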
